A study of Mus musculus with 19 samples.

Results

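The genes of the mitochondrial chromosome were examined in the striatum of mice that carried mutant Huntingtin of different lengths. All genes whose mouse symbol starts with mt- were taken, which gave 37 of the 54232 genes in the count table. They comprised 13 protein genes, 2 rRNA genes and 22 tRNA genes. RNA sequencing had been done on the striatum of 6-month-old mice on the C57/BL/6 background, and 7 wild-type (WT) mice, 4 mice each of KI-96 and KI-571 and 4 KI-FL mice were analysed, with 1 library per mouse. The knock-in (KI) genotypes derive from HD140Q mice, in which the endogenous mouse gene for Huntingtin carries an expanded CAG repeat. The KI mice were heterozygous, so that each of them also held a normal allele. KI-FL mice expressed full-length mutant Huntingtin from that allele. In KI-571 and KI-96 mice, CRISPR/Cas9 had cut the mutant allele short, so that an N-terminal fragment was made. The name gives its count of amino acids apart from the additional glutamine repeat that the CAG repeat encodes. The label of each mouse gave its genotype, and neither the sex nor the day of sacrifice was taken from the labels.

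Mitochondrial DNA is a small circle that is present in many copies per cell. It is transcribed from both strands into long precursors by the polymerase POLRMT, with TFAM and TFB2M, and the tRNAs that lie between most genes are cut out by RNase P and ELAC2 to free the mRNAs and the rRNAs. Its protein genes encode subunits of the respiratory chain and of ATP synthase, and all other subunits come from nuclear genes. Mitochondrial mRNAs carry short poly(A) tails, are stabilised by LRPPRC, and are among the most abundant RNAs of the brain, where projection neurons have a high demand for ATP.

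Between 12669809 and 26388542 reads were counted on genes in a mouse. The 10 markers of striatal projection neurons were above 0 in every mouse, with a summed level of 5370 to 9130 CPM, the read count scaled by library size, whereas the 4 markers of cortical excitatory neurons spanned 8.80 to 952 CPM and the 3 markers of choroid plexus spanned 8.84 to 5160 CPM. KI-96 replicate 3 stood apart, since 24.2% of its reads fell on no annotated feature, against 11.1 to 15.99% in the others. KI-FL replicate 4 had the fewest detected genes, 16384 against 23177 to 28700. Results that rest on these libraries are given with and without them.

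The mitochondrial genes took a mean of 5.31 ± 0.840% (SD, n = 19) of all counts on genes. The share in WT mice was lowest at 4.68%, had a median of 5.47% and was highest at 5.84%. In KI-96 mice it was 6.37, 4.57, 3.62 and 4.82%, in KI-571 mice 6.89, 4.93, 4.25 and 6.43%, and in KI-FL mice 5.37, 5.02, 4.78 and 6.54%. The 4 genotypes overlapped, and each KI genotype held mice both above and below the median of WT. The means were 5.33 ± 0.422% (SD, n = 7) in WT, 4.85 ± 1.14% (SD, n = 4) in KI-96, 5.62 ± 1.24% (SD, n = 4) in KI-571 and 5.43 ± 0.780% (SD, n = 4) in the KI-FL group, so that they differed by less than the spread among KI-96 or KI-571 mice. Without KI-96 replicate 3, which had the lowest share of all mice, the KI-96 mean was 5.26%, and without KI-FL replicate 4 the KI-FL mean was 5.06%. The 95% Wilson interval of a mouse's share was at most 0.025 percentage points wide and covers counting error only. In this bulk tissue, fewer cells of a type and less RNA per cell cannot be told apart.

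**Figure D1:**
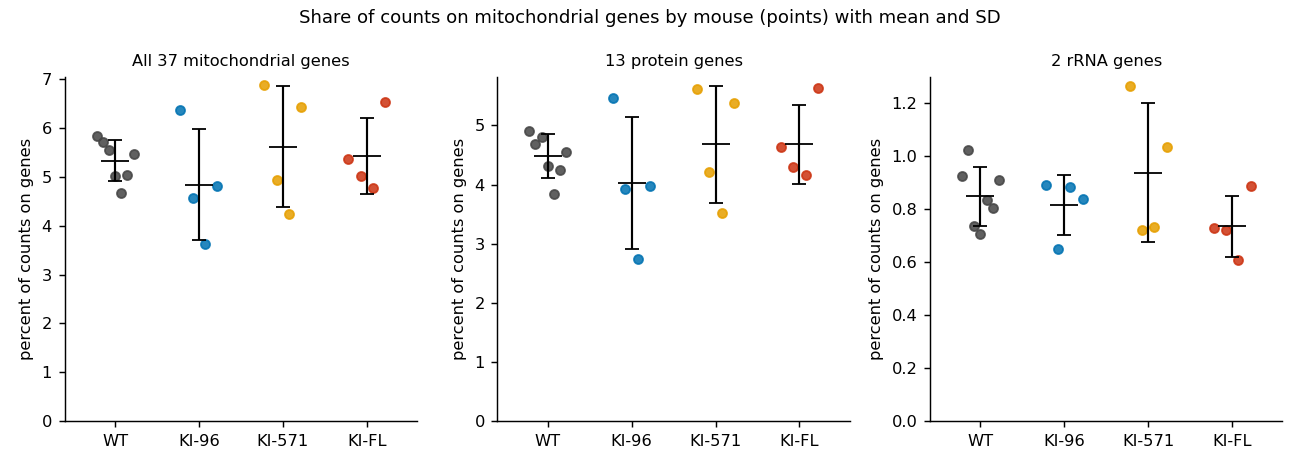
Percent of the counts on genes that fell on all 37 mitochondrial genes (left), the 13 protein genes (middle) and the 2 rRNA genes (right), with 1 point per mouse and the mean and SD of each genotype as bars. The WT mice lie between 4.68 and 5.84% for all mitochondrial genes, inside the range of the KI-571 mice.

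The share of the protein genes was 4.47 ± 0.746% (SD, n = 19) and that of the rRNA genes 0.837 ± 0.157% (SD, n = 19), and both overlapped among the 4 genotypes. A single gene, mt-Co1, which encodes the catalytic subunit of complex IV (cytochrome c oxidase), took 27.6 to 35.3% of the mitochondrial counts and had the highest count of all genes in 19 of 19 mice. The highest nuclear gene was Mbp, a myelin gene, in 18 of them. The 7 genes of complex I (NADH dehydrogenase) together took 43.9 ± 2.32% (SD, n = 19) of the protein gene counts, the 3 genes of complex IV took 37.7 ± 1.93% (SD, n = 19), and mt-Cytb, the only mitochondrial gene of complex III, took 13.7 to 20.7%. The lowest mt-Cytb share was that of KI-96 replicate 3, and the others began at 16.3%. These are shares of counts, and 6 protein genes, from mt-Co2 to mt-Nd4l, held at most 0.239% of a mouse's mitochondrial counts. Reads of mt-Co2, mt-Atp6, mt-Co3, mt-Nd3 and mt-Nd4l could be left out or divided with nuclear copies, as given below. The shares are therefore uncertain as shares of the RNA.

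Levels between genes were then compared per length, as CPM per kilobase of the annotated gene. The highest mean level was that of mt-Co1, 10880 ± 2007 CPM per kilobase (SD, n = 19). It was followed by mt-Cytb at 7204, mt-Nd1 at 6624, mt-Nd2 at 3653, the 12S rRNA mt-Rnr1 at 3637, the 16S rRNA mt-Rnr2 at 3112, mt-Nd4 at 3076, mt-Nd5 at 2510 and mt-Nd6 at 1478 CPM per kilobase. Some neighbours in this order were not separated by the mice. The level of mt-Nd2 was above that of mt-Rnr1 in 12 of 19 mice and that of mt-Rnr2 above that of mt-Nd4 in 9, whereas mt-Co1 exceeded mt-Cytb and mt-Nd1 exceeded mt-Nd2 in all 19. These 9 genes spanned a 7.36-fold range of mean levels.

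The other protein genes lay far below. The next gene in the order, mt-Co2, had a mean of 42.8 ± 25.2 CPM per kilobase (SD, n = 19), a 34.5-fold step down from mt-Nd6, and mt-Co1 was 254-fold above mt-Co2, although both encode core subunits of the same enzyme. After mt-Co2 came mt-Co3, also of complex IV, at 28.1, the ATP synthase subunit mt-Atp6 at 25.5, the complex I subunits mt-Nd3 at 9.78 and mt-Nd4l at 5.03, and the ATP synthase subunit mt-Atp8 at 1.2 CPM per kilobase. The 6 genes of this lower group are neighbours. They follow each other from mt-Co2 to mt-Nd4l between mt-Co1 and mt-Nd4, interrupted only by tRNA genes.

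**Figure D2:**
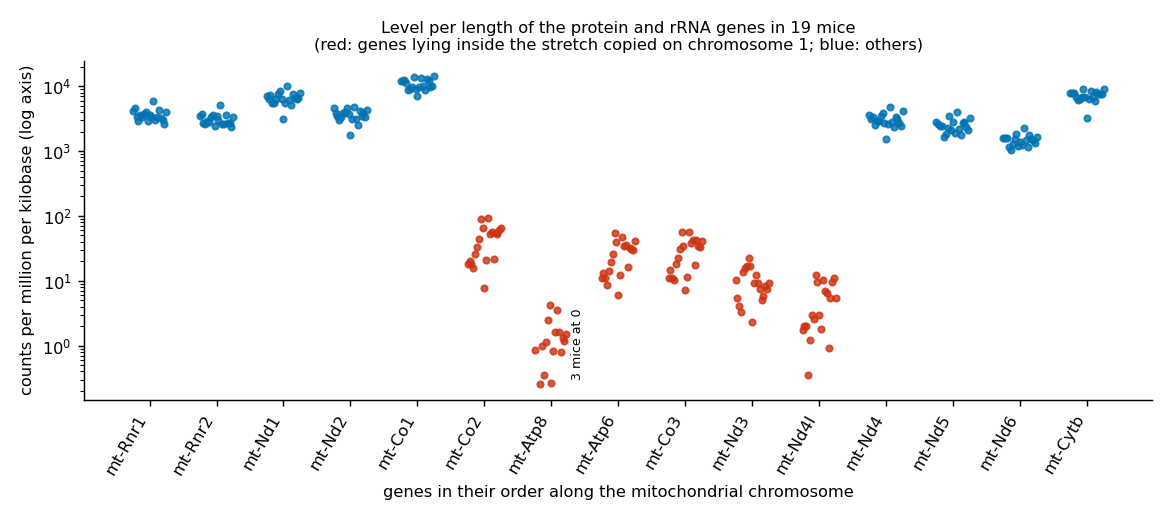
CPM per kilobase (log axis) of the 13 protein and 2 rRNA genes in their order along the mitochondrial chromosome, with 1 point for each of 19 mice. The 6 genes in red, from mt-Co2 to mt-Nd4l, reach at most 92.7 in any mouse, and the 9 genes in blue are at least at 1036. Mice in which mt-Atp8 was at 0 are given as a number.

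The annotated nuclear genome holds copies of 5 of these 6 genes and of the ends of mt-Co1 and mt-Nd4 that border them. In GENCODE M21 on GRCm38, 7 unprocessed pseudogenes on the minus strand of chr1:24611535-24616197 match the mitochondrial bases M:6381-11042. Along the mitochondrial order they are Gm29216 for the end of mt-Co1, Gm28661 for mt-Co2, Gm10925 for mt-Atp6, Gm28437 for mt-Co3, Gm28438 for mt-Nd3, Gm10222 for mt-Nd4l and Gm28439 for the first part of mt-Nd4. Over the 4149 bases compared there were 7 substitutions, an identity of 99.83%. Of the other nuclear transcripts kept for comparison, the best had an identity of 97.61%. Only ungapped matches in the same orientation were kept, and matches on a further chromosome were left out. Of all windows of 100 bases, the shortest read the study kept, a nuclear transcript held the identical letters for 99.5% in mt-Co2, 99.5% in mt-Atp6, 99.9% in mt-Co3, 97.6% in mt-Nd3 and 98.5% in mt-Nd4l. The value was 60.8% in mt-Nd4, 30.8% in mt-Co1, 3.2% in mt-Nd2 and 0 in mt-Nd1, mt-Nd5, mt-Nd6, mt-Cytb and both rRNA genes. It was also 0 in mt-Atp8, for which no pseudogene is annotated between Gm28661 and Gm10925, and the genome sequence there was not used here.

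A read that fits more than 1 place is placed by HTSeq in a separate line of reads aligned not uniquely, which held 3.07 to 5.27% of the reads in the table, and is left out of the gene counts. The levels and the folds of the 5 genes with an annotated copy are uncertain as measures of the RNA, since reads could be left out or divided between a gene and its copy. For mt-Co1 and mt-Nd4 the same holds in part, as 30.8% and 60.8% of their windows lay in a nuclear transcript. Their levels and their places in the order are uncertain to that extent. With the counts of the copies added, the mean level was 94.0 CPM per kilobase for mt-Co2, 70.6 for mt-Atp6, 53.8 for mt-Co3, 128.9 for mt-Nd3 and 13.1 for mt-Nd4l, still below all 9 other genes. How many of the reads aligned not uniquely came from this stretch was not tested.

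Some mitochondrial genes also share bases with each other, and HTSeq sets reads that fit 2 genes aside as ambiguous, 4.54 to 5.61% of the reads in the table. The overlaps of mt-Atp8 with mt-Atp6 and of mt-Nd4l with mt-Nd4 are shown because a read that covers the shared bases fits both genes. A further overlap, of mt-Atp6 with mt-Co3, is 1 base long. The sequences are from GENCODE M21 transcripts on GRCm38, plus strand, with the bases that belong to both genes in capitals. The first lies at M:7912-7984 and the second at M:10152-10188.
mt-Atp8/mt-Atp6 overlap: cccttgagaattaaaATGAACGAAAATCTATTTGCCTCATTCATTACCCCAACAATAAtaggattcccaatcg
mt-Nd4l/mt-Nd4 overlap: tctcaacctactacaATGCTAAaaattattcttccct
In both, the capitals open with the start codon of the second gene and close with the last bases of the first. The overlap takes 43 of the 204 bases of mt-Atp8 and 7 of the 297 bases of mt-Nd4l. The lowest gene, mt-Atp8, had 0 to 13 counts per mouse, was at 0 in 3 mice and did not pass the filter on low counts. A count of 0 allows up to 3 counts, which is 0.106 to 0.238 CPM depending on the mouse.

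Of the 22 tRNA genes, 21 had 0 counts in every mouse. The tRNA genes are 59 to 75 bases long, shorter than the shortest read kept, so reads of a mature tRNA were discarded before alignment, and reads of a precursor that also touch a neighbouring gene could be set aside as ambiguous. The exception was mt-Tp, the tRNA for proline, which is annotated on the minus strand at M:15356-15422. It is the last annotated gene before the control region, so that no gene adjoins it there. The tRNA gene mt-Tf, at M:1-68, borders that region from its other end and had 0 counts in every mouse. Why only mt-Tp had counts was not tested. Its sequence is shown because it was the only tRNA gene with counts.
mt-Tp: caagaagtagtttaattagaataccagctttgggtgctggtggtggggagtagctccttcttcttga
The counts of mt-Tp ranged from 628 to 2246 per mouse. Its level was 56.3 CPM at the lowest, 85.8 at the median and 90.8 at the highest in WT mice, 116.7, 51.7, 38.9 and 54.8 CPM in KI-96, 104.2, 60.7, 55.2 and 80.7 CPM in KI-571 and 97.2, 93.8, 31.7 and 111.9 CPM in KI-FL mice. KI-96 replicate 3 and KI-FL replicate 3 were the lowest mice, and every genotype overlapped every other. Whether these reads stem from the tRNA gene strand or from the opposite strand cannot be told apart, since the strand setting of the counting is not given in the sources used here.

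Ratios among the 9 well-covered genes set KI-96 replicate 3 apart from the other 18 mice. The rRNAs took 12.7 to 18.4% of the mitochondrial counts in 18 mice and 24.4% in KI-96 replicate 3. The level of mt-Rnr2 per kilobase was 0.791 to 0.952 of that of mt-Rnr1 in all 19 mice. These rRNAs are the RNA scaffold of the mitochondrial ribosome and are transcribed first from their strand. In KI-FL mice the rRNA share was 13.6, 14.4, 12.7 and 13.6%, and it did not overlap with the 14.6 to 18.4% of KI-571 mice but did overlap with the 13.3 to 17.9% of WT mice. The ratio of mt-Nd5 to mt-Nd1 counts, which sets a gene near the end of the long precursor beside a gene near its start, was 0.561 to 0.859 in 18 mice and 1.68 in KI-96 replicate 3. That mouse also had the lowest ratio of mt-Nd2 to mt-Nd5 counts, 0.363 against 0.676 to 1.19 in the others. The same mouse had the large share of reads on no feature given above, and the part of that share in these ratios was not tested.

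The only protein gene transcribed from the other strand, mt-Nd6, a complex I subunit, had counts equal to 1.44 to 2.01% of those of the 12 other protein genes in 18 mice and 2.71% in KI-96 replicate 3. Its means were 1.66 ± 0.143% (SD, n = 7) in WT, 1.91 ± 0.540% (SD, n = 4) in KI-96, 1.86 ± 0.112% (SD, n = 4) in KI-571 and 1.67 ± 0.126% (SD, n = 4) in the KI-FL group. The genotypes overlapped in this share. Per kilobase, mt-Nd6 stood at 0.468 to 0.688 of mt-Nd5, which it overlaps by 14 bases on the opposite strand, so that without the strand setting reads of an antisense transcript could be counted for either gene.

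Each KI genotype was compared with WT by edgeR's quasi-likelihood test over 18521 genes, with Benjamini-Hochberg adjustment over all of them. Of the 37 mitochondrial genes, 15 passed the filter on low counts. None of the 15 passed the adjusted threshold of 0.05 in any of the 3 comparisons, where 0.0270% of all tested genes passed in KI-96, 0.0324% in KI-571 and 0.194% in KI-FL mice. At an unadjusted p under 0.05 there were 2 genes in KI-96, 4 in KI-571 and 4 in KI-FL mice, all with higher values in the KI mice, beside 7.45, 7.72 and 16.7% of all tested genes in either direction. DESeq2 passed 0, 0 and 1 of the 15, beside 0.151, 0.621 and 2.75% of all genes. All of these genes lie in the copied stretch. The median log2 fold change of the 15 genes was 0.02 in KI-96, 0.17 in KI-571 and 0.10 in KI-FL mice, and that of all tested genes was -0.02, -0.01 and -0.03. Without KI-571 replicate 1 the median in KI-571 mice was -0.04, without KI-96 replicate 1 that in KI-96 mice was -0.13, and without KI-FL replicate 4 that in KI-FL mice was 0.0014. These 3 comparisons share the WT mice.

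For the 9 protein and rRNA genes outside the lower group, differences from WT were small relative to their errors. Their log2 fold changes lay between -0.21 and 0.15 in KI-96, between -0.02 and 0.26 in KI-571 and between -0.19 and 0.19 in KI-FL mice, with standard errors of 0.160 to 0.210. The smallest unadjusted p among them were 0.319, 0.120 and 0.262, and the adjusted p were 0.575 or higher by edgeR's quasi-likelihood test. Of these 9 genes, the value was above WT for 3 in KI-96, for 8 in KI-571 and for 6 in KI-FL mice, and below WT for the rest.

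The most abundant gene, mt-Co1, had 13640 CPM at the lowest, 17410 at the median and 19330 at the highest in WT mice. It had 21520, 14200, 10900 and 15040 CPM in KI-96, 20450, 15550, 13330 and 20310 CPM in KI-571, and 18600, 15230, 15510 and 22040 CPM in KI-FL mice. All genotypes overlapped. The log2 fold changes were -0.11 ± 0.177 (SE) in KI-96, 0.06 ± 0.176 (SE) in KI-571 and 0.10 ± 0.176 (SE) in KI-FL mice. The level of mt-Cytb, the cytochrome b of complex III, was 8126 CPM on average in WT, 7325 in KI-96, 8405 in KI-571 and 9193 in KI-FL mice. Its lowest mouse was KI-96 replicate 3, with 3774 CPM, and its highest mice were KI-96 replicate 1 and KI-FL replicate 4, both with 10540 CPM.

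Among the well-covered complex I genes, mt-Nd1 had means of 6246 CPM in WT, 5619 in KI-96, 6957 in KI-571 and 6604 in KI-FL mice. Its spread was 767 CPM (SD, n = 7) in WT and 2090 CPM (SD, n = 4) in KI-96 mice, where single mice held 8100, 6044, 3038 and 5295 CPM. The lowest p of this group in KI-96 mice was that of mt-Nd4, with a log2 fold change of -0.21 ± 0.210 (SE) that moved to -0.02 without KI-96 replicate 3. The lowest in KI-571 mice was that of mt-Nd6, at 0.26 ± 0.160 (SE). In KI-FL mice the lowest p among the 9 genes was that of mt-Rnr1, with 3507 CPM in WT and 3065 CPM in KI-FL mice and a log2 fold change of -0.19 ± 0.169 (SE).

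**Figure D3:**
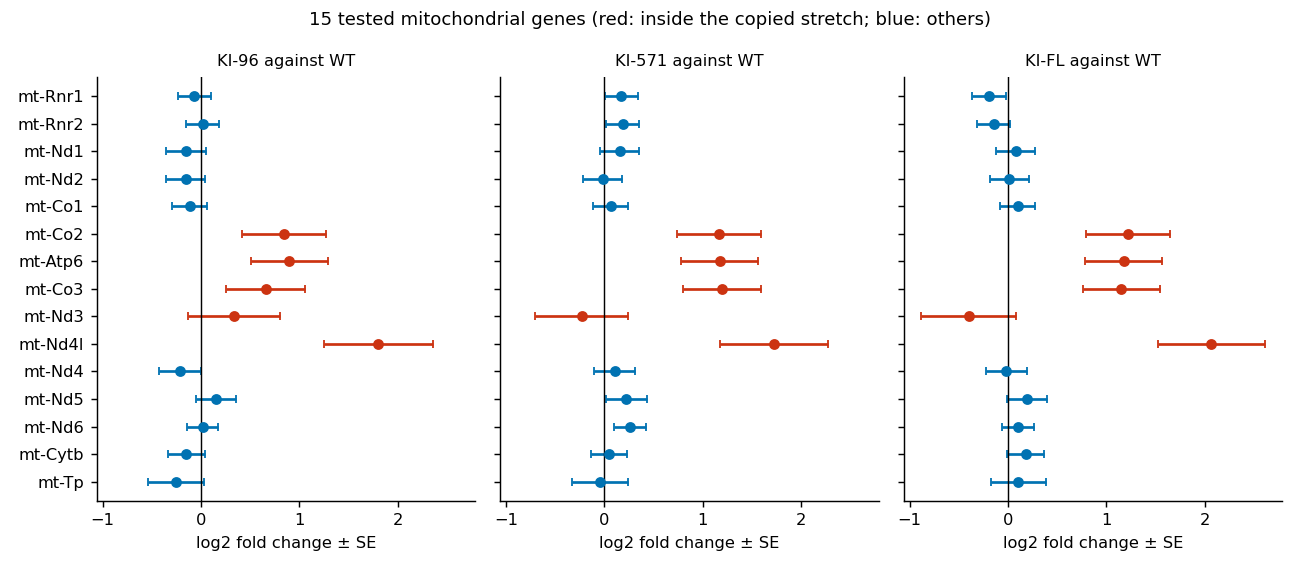
Log2 fold change of each KI genotype against WT with its standard error, for the 15 mitochondrial genes tested, in their order along the chromosome. The genes in blue lie between -0.25 and 0.26, and among those in red mt-Nd4l has the highest value in each panel.

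In the copied stretch, mt-Co2, mt-Atp6, mt-Co3 and mt-Nd4l were higher on average in all 3 KI genotypes than in WT mice, and mt-Nd3 was not. In KI-FL mice these 4 genes did not overlap with WT, a separation toward higher values that 2.90% of all tested genes had. No mitochondrial gene was separated from WT toward higher values in KI-96 or KI-571 mice, where 0.599 and 0.880% of all genes were, and none toward lower values in any of the 3. The share of all genes separated toward lower values was not counted.

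The core complex IV subunit mt-Co2 had 10.6 CPM at the lowest, 13.6 at the median and 29.8 at the highest in WT mice. It had 60.3, 44.0, 5.21 and 14.3 CPM in KI-96, 63.4, 36.5, 38.7 and 14.9 CPM in KI-571, and 36.8, 36.5, 41.5 and 44.8 CPM in KI-FL mice. The KI-FL mice were all above WT, whereas 2 KI-96 mice and 1 KI-571 mouse lay within the range of WT or below it. The difference of KI-FL mice from WT was 1.22 ± 0.426 (SE) on the log2 scale, with an unadjusted p of 0.00904 and an adjusted p of 0.166 by edgeR's quasi-likelihood test. In KI-571 mice it was 1.17 ± 0.425 (SE) with an adjusted p of 0.437, and in KI-96 mice 0.84 ± 0.430 (SE) with an adjusted p of 0.688.

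The third subunit of complex IV, mt-Co3, followed the same mice. Its level was 8.15 to 23.9 CPM in WT mice, 43.7, 26.7, 5.69 and 9.06 CPM in KI-96, 45.1, 30.2, 33.3 and 13.7 CPM in KI-571, and 33.5, 27.2, 25.6 and 32.6 CPM in KI-FL mice. Only the KI-FL mice were all above WT. The log2 fold changes were 0.66 in KI-96, 1.196 in KI-571 and 1.15 in KI-FL mice, with adjusted p of 0.739, 0.342 and 0.160 by edgeR's quasi-likelihood test. The proton channel subunit of ATP synthase, mt-Atp6, had 5.92 to 17.6 CPM in WT mice, 36.9, 26.9, 4.17 and 8.44 CPM in KI-96, 32.3, 23.6, 24.5 and 11.1 CPM in KI-571, and 21.8, 21.3, 20.7 and 27.9 CPM in KI-FL mice. Its log2 fold changes were 0.90, 1.17 and 1.17, with adjusted p of 0.653, 0.353 and 0.153 by the same test.

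The complex I subunit mt-Nd4l had the highest fold change and the fewest counts of the genes tested, 2 to 64 per mouse. It had 0.104 CPM at the lowest, 0.588 at the median and 0.885 at the highest in WT mice. The values were 3.61, 2.88, 0.867 and 0.538 CPM in KI-96, 3.07, 2.08, 1.92 and 0.269 CPM in KI-571, and 1.59, 2.85, 3.24 and 1.63 CPM in KI-FL mice. On the log2 scale the difference from WT was 1.81 ± 0.552 (SE) in KI-96, 1.73 ± 0.549 (SE) in KI-571 and 2.07 ± 0.548 (SE) in KI-FL mice, with adjusted p of 0.552, 0.309 and 0.0932 by edgeR's quasi-likelihood test. DESeq2 gave 0.0177 in KI-FL mice, the only call it made among the 15 genes. When the model held only the KI-FL and WT mice, edgeR passed all 4 genes, with adjusted p of 0.0287 for mt-Co2, 0.0317 for mt-Atp6, 0.0405 for mt-Co3 and 0.0399 for mt-Nd4l. Over all genes, 36 passed in KI-FL mice with all mice in the model and 0 to 509 under the alternatives, this model among them. The share of all genes that passed in this model alone is not given here.

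The mice of a genotype differed widely in these genes, other than the KI-FL mice. The summed level of the 6 genes inside the stretch was 33.0, 36.7, 30.5 and 25.95 CPM in WT replicates 1 to 4 and 46.9, 60.4 and 78.1 CPM in WT replicates 5 to 7. It was 153.0, 107.3, 16.8 and 35.8 CPM in KI-96, 148.4, 96.3, 101.4 and 41.9 CPM in KI-571 and 95.99, 91.0, 93.9 and 110.0 CPM in KI-FL mice. KI-96 mice thus included both the highest and the lowest of all 19 mice. WT replicates 5 to 7 also had more counts on genes, 23457270 to 26388542 against 17281603 to 18945441 in WT replicates 1 to 4. Without KI-96 replicate 3, 4 genes in place of 2 had an unadjusted p under 0.05 in the comparison of KI-96 with WT, and none passed the adjusted threshold by edgeR's quasi-likelihood test. Without KI-FL replicate 4 the number at an unadjusted p under 0.05 in KI-FL mice was again 4, and the log2 fold change of mt-Co2 was 1.16 with an adjusted p of 0.303.

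The chromosome 1 copies moved with the mitochondrial genes. The summed level of the 6 copies other than Gm28438 was 41.5 to 117.9 CPM in WT mice, 230.6, 157.6, 28.8 and 56.7 CPM in KI-96, 213.0, 141.0, 150.5 and 65.0 CPM in KI-571, and 154.6, 159.6, 156.1 and 172.1 CPM in KI-FL mice. The order of the mice was close to that of the mitochondrial genes. The median log2 fold change of the 6 copies was 0.81 in KI-96, 1.09 in KI-571 and 1.32 in KI-FL mice, and edgeR's quasi-likelihood test passed none of them after adjustment, with 3, 5 and 6 at an unadjusted p under 0.05. Over all tested genes the shares were 0.0270, 0.0324 and 0.194% after adjustment and 7.45, 7.72 and 16.7% without it. The copy of mt-Co2, Gm28661, held 50.5 to 62.4% of the counts of the pair in the 19 mice. For mt-Co3, Gm28437 held 41.7 to 55.6%, and for mt-Atp6, Gm10925 held 60.4 to 71.7%. The pair of mt-Nd4l and Gm10222, with far fewer counts, ranged from 40.9 to 83.9%. These shares overlapped among the genotypes for mt-Co2 and mt-Co3. For mt-Atp6 the share of the copy was 60.4 to 63.3% in KI-571 and 64.0 to 66.8% in KI-FL mice, which did not overlap. The share of reads aligned not uniquely was lowest in KI-96 replicate 3, the mouse with the lowest summed level, at 3.07%, but highest in KI-571 replicate 4, at 5.27%, whose summed level was low as well. Whether the choice among near-identical places set the differences between genotypes was not tested.

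**Figure D4:**
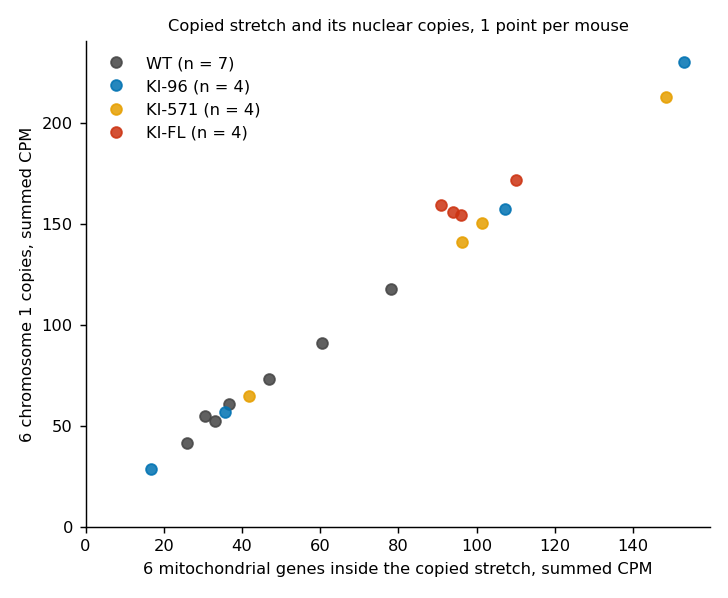
Summed CPM of the 6 mitochondrial genes inside the copied stretch (horizontal axis) against the summed CPM of the 6 chromosome 1 copies other than Gm28438 (vertical axis), with 1 point per mouse coloured by genotype. The KI-FL mice lie together between 91.0 and 110.0 CPM on the horizontal axis, and the KI-96 mice lie at both ends, from 16.8 to 153.0 CPM.

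The pair of mt-Nd3 and Gm28438 behaved differently. This subunit of complex I and its copy differ at 1 base, written T9461C, where the base of the reference mitochondrial chromosome stands first, then its position on that chromosome counted from 1, then the base of the copy. It is base 3 of mt-Nd3, directly behind the tRNA gene mt-Tg, and is shown in capitals in the first 60 bases of both, taken from GENCODE M21 transcripts on GRCm38. For mt-Nd3 these are M:9459-9518 on the plus strand and for Gm28438 chr1:24613060-24613119 on the minus strand.
mt-Nd3: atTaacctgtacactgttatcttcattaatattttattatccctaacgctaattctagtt
Gm28438: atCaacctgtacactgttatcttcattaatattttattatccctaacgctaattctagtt
A read across this base is a full match to only 1 of the 2 places. On the mitochondrial chromosome nearly every such read also covers mt-Tg, which ends at M:9458, and could be set aside as ambiguous. No annotated nuclear copy of mt-Tg was found, so such reads need not be counted alike at the 2 places. The shares of the pair carry this limit.

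The counts of Gm28438 fell into 2 ranges that were far apart. In 8 mice it had 19 to 122 counts and held 27.2 to 55.9% of the counts of the pair. In the other 11 mice it had 589 to 2576 counts and held 93.9 to 98.3%. The 8 mice were all 4 KI-96 mice and WT replicates 1, 5, 6 and 7, and the 11 mice were WT replicates 2, 3 and 4 and all KI-571 and KI-FL mice. No mouse lay between the ranges. The widest 95% Wilson interval was that of KI-96 replicate 3, 39.5 to 71.1% from 19 and 15 counts of Gm28438 and mt-Nd3, so the gap up to 92.1%, the lowest bound among the 11 mice, was larger than the counting error.

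The counts of mt-Nd3 itself were 15 to 157 in the 8 mice and 22 to 88 in the 11, which overlap. Its log2 fold change was 0.34 ± 0.466 (SE) in KI-96, -0.23 ± 0.476 (SE) in KI-571 and -0.40 ± 0.485 (SE) in KI-FL mice, with adjusted p of 0.909, 0.979 and 0.700 by edgeR's quasi-likelihood test. The direction in KI-571 mice turned to 0.57 when WT replicates 1 to 4 alone stood for WT. The log2 fold change of Gm28438 for KI-96 minus KI-571 was -4.48 ± 1.04 (SE), and their levels did not overlap, with an adjusted p of 0.328 by the same test, in which the WT mice of both ranges share the estimate of the spread. The base that the mitochondrial DNA of each mouse carries at this position was not determined, since reads were not analysed here. WT mice lay in both ranges, whereas all mice of a KI genotype lay in the same range. Among the KI mice, litter, maternal line and genotype cannot be told apart from these labels.

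**Figure D5:**
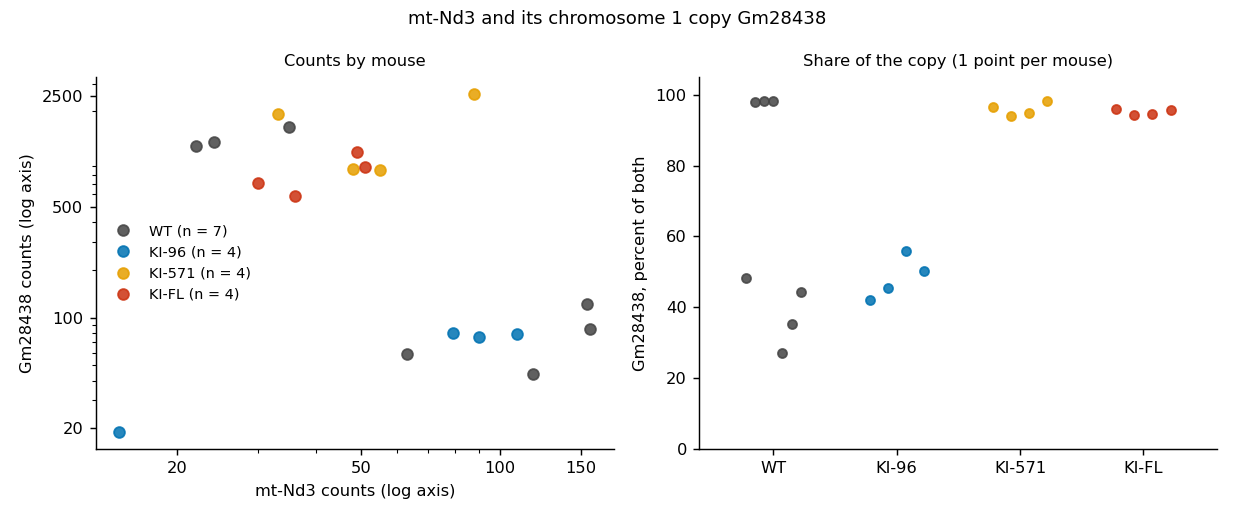
Left, counts of Gm28438 against counts of mt-Nd3 in each mouse, both on log axes and coloured by genotype. Right, counts of Gm28438 as a percent of the counts of both, by genotype. All KI-96 mice and 4 WT mice lie at 27.2 to 55.9%, and all other mice lie at 93.9 to 98.3%.

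The KI genotypes were also compared with each other. By edgeR's quasi-likelihood test none of the 15 mitochondrial genes passed the adjusted threshold between KI-96 and KI-571, between KI-96 and KI-FL or between KI-571 and KI-FL mice, where 0.00540, 0 and 0.0864% of all tested genes did. None had an unadjusted p under 0.05, beside 5.51, 8.90 and 8.90% of all genes, and DESeq2 passed none, beside 0.189, 0.205 and 0.475%. The median log2 fold change of the 15 genes was -0.20 for KI-96 minus KI-571, -0.21 for KI-96 minus KI-FL and 0.03 for KI-571 minus KI-FL. In the first of these comparisons 13 of the 15 genes were lower in KI-96 mice, and the lowest p was that of mt-Nd1, at 0.184, with a log2 fold change of -0.31. It was -0.105 without KI-96 replicate 3, -0.116 without KI-571 replicate 1 and -0.538 without KI-96 replicate 1. Between KI-96 and KI-FL mice the lowest p was that of mt-Cytb, 0.132, with a log2 fold change of -0.33 ± 0.209 (SE). It was -0.0999 without KI-96 replicate 3 and -0.56 without KI-96 replicate 1. Without KI-96 replicate 3 the median for KI-96 minus KI-FL moved from -0.21 to -0.01. Between KI-571 and KI-FL mice the lowest p was that of mt-Rnr1, 0.0659, with 3951 CPM in KI-571 and 3065 CPM in KI-FL mice and a log2 fold change of 0.37 that was 0.17 without KI-571 replicate 1.

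Nuclear genes that make and process mitochondrial RNA were examined beside the mitochondrial genes. None of 17 genes of mitochondrial transcription and DNA replication, and none of 22 tested genes of RNA processing and decay, passed the adjusted threshold against WT by edgeR's quasi-likelihood test in any KI genotype. At an unadjusted p under 0.05, the first list held 1 gene in KI-96, 0 in KI-571 and 3 in KI-FL mice, and the second held 0, 1 and 2. Over all tested genes 7.45, 7.72 and 16.7% had such a p, so the shares of both lists were near or below those of all genes. The polymerase gene Polrmt had 34.2 ± 1.49 CPM (SD, n = 7) in WT and 33.3 ± 2.31 CPM (SD, n = 4) in the KI-FL group, and its log2 fold changes lay between -0.07 and 0.03 in the 3 KI genotypes. Tfam, which encodes the factor that packages mitochondrial DNA and starts its transcription, had log2 fold changes of -0.05, 0.04 and 0.23. Lrpprc, which encodes the stabiliser of mitochondrial mRNAs, had -0.0025 in KI-96, -0.08 in KI-571 and -0.02 in KI-FL mice.

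The smallest p of the first list belonged to Mterf3, a negative regulator of mitochondrial transcription, in KI-96 and KI-FL mice. It had 20.6 ± 3.37 CPM (SD, n = 7) in WT, 15.1 ± 3.35 CPM (SD, n = 4) in KI-96 and 13.8 ± 2.81 CPM (SD, n = 4) in the KI-FL group, and the groups overlapped. The log2 fold changes were -0.45 with an adjusted p of 0.639 and -0.58 with an adjusted p of 0.139 by edgeR's quasi-likelihood test. In KI-571 mice it was Twnk, the gene of the mitochondrial DNA helicase, at 0.23 with an adjusted p of 0.678. In the second list it was Pnpt1, which encodes a polynucleotide phosphorylase of RNA decay, in KI-96 and KI-FL mice, at -0.31 and -0.46 with adjusted p of 0.679 and 0.155. Its level was 20.5 to 27.0 CPM in WT and 13.1 to 18.9 CPM in KI-FL mice, which did not overlap, and it overlapped with WT in the other 2 KI genotypes. How many of all genes were separated toward lower values was not counted, so this separation is a description only. In KI-571 mice it was Fastkd2, which encodes an RNA-binding protein of the mitochondrial ribosome's assembly, at -0.27 with an adjusted p of 0.518.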

How the data were processed

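Raw read counts were deposited by the authors, 1 column per mouse, without normalization. Per the labels and the methods of the study, adapters were trimmed with BBduk, reads under 100 bases were discarded, and the rest were aligned to GRCm38 with STAR and counted with HTSeq. Tool versions, annotation and strandedness of the counting are not given in the sources used here. The 4 columns of no sample were not used, and the 5 HTSeq summary lines were kept out of library sizes and tests. Gene positions, lengths and transcript sequences were taken from GENCODE M21 on GRCm38.

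All 19 mice were fitted together in edgeR 4.0.16 (R 4.3.3) after TMM normalization and filterByExpr (minimum count 10, minimum total 15), with a coefficient per genotype as given by the labels. The 6 pairs of genotypes were tested by the quasi-likelihood F-test with Benjamini-Hochberg adjustment over 18521 genes at 0.05. The study used DESeq2 with a sacrifice batch and left out 1 WT mouse. Neither was taken from the labels, and all 7 WT mice were kept. This is more mice than the study states per genotype for its sequencing. CPM uses TMM-scaled library sizes, and log2 CPM a prior count of 2. Shares and ratios were described without a test. Nuclear copies above 98% identity were called near-identical.

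All protein and rRNA genes are named, with the tRNA genes that pass the filter, the gene with the smallest p in each direction, and from each list of nuclear genes the one with the smallest p against WT, with Polrmt, Tfam and Lrpprc. The members and lists were chosen with earlier results of these data known. Mice of a genotype differed by more than sampling noise in all 39 pairs. The edgeR procedure was also run on simulated counts with known changes and the same spread for every gene. Those counts held no deviating mouse and no reads shared with nuclear copies, unlike these data. Alternatives were DESeq2 1.42.0, other scalings and filters, fewer samples, a replicate block, Xist as a covariate and leaving out each mouse. Leaving out KI-96 replicate 3 and KI-FL replicate 4 together was added after the data had been seen.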

Additional observations from a re-analysis of the deposited data

Results flagged for a closer look

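Among 92 sets of 4 to 7 mice of 1 genotype, 4 held a mouse far from the others of its genotype, and chance gives about 5. KI-FL replicate 4 had a log2 CPM of 13.4 for mt-Cytb, above the 13.1 of each of the other 3 KI-FL mice. KI-FL replicate 3 had a log2 CPM of 4.99 for mt-Tp, below the others at 6.55 to 6.81. KI-571 replicate 1 had a level of mt-Nd6 per kilobase of 0.564 of that of mt-Nd5, below the others at 0.650 to 0.664. The same mouse had 49.6% of its mitochondrial protein gene counts on complex I genes, above the others at 42.1 to 43.4%.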

How the results depend on the processing

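No mitochondrial gene passed the adjusted threshold under any alternative, except in KI-FL against WT, where DESeq2 passed 1 and the model with only the groups compared passed 4. The range of all genes passing under the alternatives is given below. For mt-Co2, mt-Atp6, mt-Co3 and mt-Nd4l these adjusted p were 0.0287, 0.0317, 0.0405 and 0.0399 with only the groups compared (log2 fold changes of 1.22, 1.17, 1.15 and 2.07), and 0.0177 for mt-Nd4l by DESeq2 (2.07). The number of genes at an unadjusted p under 0.05 in KI-96 against WT was 2, and 4 without the filter, 1 with the stricter filter (10 counts in every mouse), 1 with only the groups compared, 5 with WT replicates 1 to 4 only, 5 with the replicate block and 4 without KI-96 replicate 3 and KI-FL replicate 4 together. With each mouse left out it was 1 to 4, with 1 without WT replicate 1, 3 or 4 or KI-96 replicate 2 and 4 without WT replicate 7 or KI-96 replicate 3 or 4. It was 3 to 5 in KI-571 and 4 in KI-FL against WT. For KI-96 minus KI-571 it was 0 to 5 (5 without KI-96 replicate 1, 1 without KI-571 replicate 3), for KI-96 minus KI-FL 0 to 5 (5 without KI-96 replicate 1, 1 without KI-96 replicate 3 or KI-FL replicate 3) and for KI-571 minus KI-FL 0 to 2 (2 without KI-571 replicate 2 or 3, 1 without KI-FL replicate 4). Without KI-96 replicate 3 and KI-FL replicate 4 together it was 1 for KI-96 minus KI-FL and 2 for KI-571 minus KI-FL, and for the latter DESeq2, library totals without TMM and no filter each gave 1.

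With each mouse left out, the median log2 fold change of the 15 genes against WT was -0.127 to 0.088 in KI-96, -0.037 to 0.292 in KI-571 and 0.00142 to 0.148 in KI-FL mice. For KI-96 minus KI-FL it was 0.0476 without those 2 mice together and -0.432 to -0.0121 with each mouse left out, and for KI-571 minus KI-FL -0.17 to 0.12. With each mouse left out, the share of counts was 5.25 to 5.44% in WT, 4.34 to 5.26% in KI-96, 5.20 to 6.08% in KI-571 and 5.06 to 5.64% in KI-FL mice. With all reads in the table as denominator it was 4.06% in WT, 3.70% in KI-96, 4.27% in KI-571 and 4.23% in KI-FL mice, and for protein genes alone 4.47% in WT, as fewer counts or more reads enter by construction. The direction of mt-Nd3 in KI-571 against WT reversed with WT replicates 1 to 4 only (0.57) and with the replicate block (0.63), and the cause was not tested. Of 90 pairs of a gene and a comparison, 54 changed sign under at least 1 alternative or left-out mouse.

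Correlations of the deviations of same-numbered mice were -0.128 to 0.290 in the 6 comparisons. They exceeded 0.1 in 3 of 4 pairs for KI-96 minus KI-571 and in at most 1 of 4 in the others, so in no comparison did every pair exceed it, and the numbers were not taken as pairs. The replicate block changed no adjusted call of a mitochondrial gene. Over all genes, the number passing against WT was 5 in KI-96, 6 in KI-571 and 36 in KI-FL mice in the model used, and 0 to 28, 0 to 115 and 0 to 509 under the alternatives, with the highest number by DESeq2. With each mouse left out it was 1 to 10, 0 to 46 and 0 to 159. Between KI genotypes it was 1, 0 and 16, with 0 to 35, 0 to 38 and 1 to 88 under the alternatives. Depth limits mt-Nd4l, with 2 to 64 counts, and mt-Atp8, with 0 to 13. The other tested genes outside the copied stretch had at least 628 counts in every mouse. The causes were not tested. No label says whether mice of a genotype came from separate litters, and the p-values measure the spread between these mice.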
